A study of Mus musculus with 12 samples.

Results

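The genes described here are 45 genes of mitosis and cytokinesis among the 52636 genes counted in each liver library. They were listed by name as genes of the G2 phase, the M phase and cytokinesis, with earlier results of these data known, and each of the 45 symbols matched 1 gene ID. For the description they were ordered by role into 7 genes of cyclins, Cdk1 and their degradation, 10 of mitotic kinases, the spindle checkpoint and the chromosomal passenger complex, 12 of the kinetochore and spindle, 9 of chromosome structure and 7 of the central spindle and cytokinesis.

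Livers came from C57Bl/6J males at 16 weeks of age, 6 exposed to prenatal vitamin D deficiency (VDD-F1, numbered VDD1 to VDD6) and 6 to prenatal vitamin D sufficiency (VDS-F1, VDS1 to VDS6). Their mothers ate a diet without vitamin D, supplemented with calcium gluconate, or the nutrient-matched sufficient diet from before mating until delivery, and were mated to males on the control diet. From delivery on the mothers, and from weaning on the offspring, of both groups ate the sufficient diet, so that the groups differ in the maternal diet and not in what the adult mice ate. RNA came from the left lateral lobe, ribosomal RNA was removed, and each mouse gave its own library, without pools. The litters of the mice are not given, so the p-values measure the spread between mice, some of which may be littermates.

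A cell that divides condenses its chromosomes, attaches them to a spindle, separates the sister chromatids and then cuts its cytoplasm apart, and the genes for these steps are transcribed together late in the cell cycle. In resting cells the DREAM complex holds them silent, and in dividing cells B-Myb and Foxm1 switch them on, through a CHR element and through CCAAT boxes that bind NF-Y. Most hepatocytes of an adult liver rest outside the cycle and enter it after loss of tissue or injury, while macrophages and other cells of the liver can also divide.

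The promoters of the genes were read to show this shared element. A window of 250 bases before to 50 bases after the transcription start was taken from the RefSeq annotation of GRCm38.p6, which held 42 windows for 40 of the 45 genes and none for Ccna2, Smc4, Tpx2, Kif20a and Aurkb. The motifs searched, on both strands, were TTTGAA (the CHR element) and CCAAT (the NF-Y box), neither of which contains the other. The windows below belong to the gene with the smallest p-value in each role group, are written 5′ to 3′ on the strand of the gene, and carry the motif matches in capitals. Ncapg2, a condensin II subunit, is on the plus strand at chr12:116405186-116405485, Cenpf, a large kinetochore protein, on the minus strand at chr1:189688037-189688336, Plk1, a kinase of mitotic entry and spindle assembly, on the plus strand at chr7:122159185-122159484, Cdc20, the activator of the anaphase-promoting complex, on the minus strand at chr4:118437294-118437593, and Kif20b, a kinesin of late cytokinesis, on the plus strand at chr19:34922108-34922407.
Ncapg2: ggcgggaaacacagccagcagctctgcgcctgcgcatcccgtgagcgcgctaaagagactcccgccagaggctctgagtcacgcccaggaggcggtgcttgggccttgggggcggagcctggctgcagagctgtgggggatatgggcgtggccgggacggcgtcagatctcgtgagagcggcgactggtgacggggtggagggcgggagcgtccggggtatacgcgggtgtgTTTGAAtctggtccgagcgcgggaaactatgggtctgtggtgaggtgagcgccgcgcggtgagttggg
Cenpf: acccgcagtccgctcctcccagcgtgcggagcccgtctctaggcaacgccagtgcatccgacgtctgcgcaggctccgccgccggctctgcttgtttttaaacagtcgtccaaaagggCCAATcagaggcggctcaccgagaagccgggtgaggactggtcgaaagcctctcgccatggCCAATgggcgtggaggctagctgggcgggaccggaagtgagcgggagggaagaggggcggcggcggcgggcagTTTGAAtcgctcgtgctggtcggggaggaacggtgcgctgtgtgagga
Plk1: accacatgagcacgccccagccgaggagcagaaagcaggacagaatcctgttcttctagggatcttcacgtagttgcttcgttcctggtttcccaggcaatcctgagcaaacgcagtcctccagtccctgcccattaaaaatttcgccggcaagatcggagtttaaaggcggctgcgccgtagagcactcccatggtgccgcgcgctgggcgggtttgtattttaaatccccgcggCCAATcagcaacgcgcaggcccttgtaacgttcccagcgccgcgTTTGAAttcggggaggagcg
Cdc20: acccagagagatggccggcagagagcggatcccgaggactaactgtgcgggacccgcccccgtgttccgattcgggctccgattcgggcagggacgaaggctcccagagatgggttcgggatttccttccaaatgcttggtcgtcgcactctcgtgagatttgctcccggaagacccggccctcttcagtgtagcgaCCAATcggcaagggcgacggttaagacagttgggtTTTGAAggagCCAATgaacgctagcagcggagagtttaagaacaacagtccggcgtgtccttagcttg
Kif20b: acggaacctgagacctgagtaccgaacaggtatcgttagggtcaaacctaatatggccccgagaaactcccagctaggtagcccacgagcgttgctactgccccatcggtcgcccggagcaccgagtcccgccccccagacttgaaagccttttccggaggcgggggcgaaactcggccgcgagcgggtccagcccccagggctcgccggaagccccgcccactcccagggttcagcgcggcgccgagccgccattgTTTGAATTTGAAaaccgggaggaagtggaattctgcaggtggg

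Each of these 5 windows held the CHR element on the strand of the gene. It began at position -18 in Ncapg2 and Cdc20, at position 2 in Cenpf, at position 30 in Plk1 and, in tandem, at positions 7 and 13 in Kif20b, where position 0 is the first transcribed base. Cdc20 and Cenpf held CCAAT boxes as well, at positions -53 and -8 and at positions -132 and -71, and Plk1 held 1 at position -14.

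Over the 40 genes with a window, 30 held TTTGAA (75%), against 20.2% of all 27025 genes with a window and 14.4% of the 9590 tested genes with a window. The match began within 50 bases of the start in 26 genes (65%), against 5.72% of all genes and 3.73% of tested genes. CCAAT was found in 29 genes (72.5%, against 41.1% and 43.0%) and at least 2 times in 18 (45%, against 13.3% and 16.7%). Both motifs stood together in 25 genes (62.5%, against 7.97% and 5.7%). The lists of other cell cycle genes read below held the motifs too. TTTGAA was in 51.9% of other mitosis genes with a window, 41.2% of regulators, 16.7% of DNA replication genes and 10.5% of Cdk inhibitors and brakes. CCAAT was in 68.5%, 58.8%, 52.8% and 78.9% of these, and at least 2 times in 50%, 29.4%, 30.6% and 31.6%. Among the role groups, TTTGAA was found in 6 of 6 windows of central spindle and cytokinesis genes, 7 of 8 of chromosome structure, 5 of 6 of cyclin genes, 7 of 11 of kinetochore and spindle genes and 5 of 9 of kinase and checkpoint genes. A match is a stretch of letters and not a shown binding site.

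**Figure D1:**
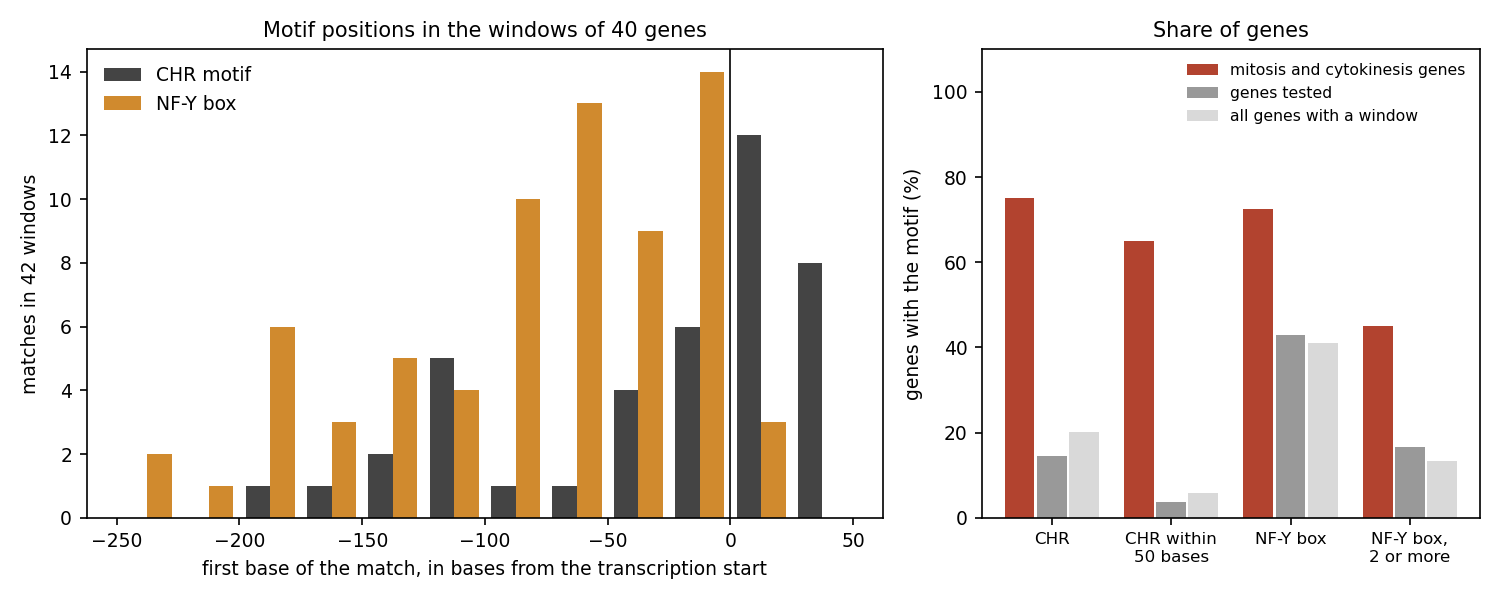
Left, the number of matches to the CHR motif and the NF-Y box in the 42 promoter windows, in bins along the distance in bases from the transcription start (vertical line). Right, the share of genes (%) with each motif among the mitosis and cytokinesis genes, the genes tested and all genes with a window: the CHR motif was in 75% of the first, 14.4% of the second and 20.2% of the third.

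Each library held 25897868 to 36403413 fragments, of which 14275793 to 20815066 were counted on genes. The mitochondrial share was 3.91% to 5.61% and the library with the lowest share, VDD2, also had the most genes detected, 18901 against 16432 to 18772 in the others. In VDS6, 11.1% of fragments lay outside genes. The 8 hepatocyte markers were detected in the libraries of both groups at a summed 75039 to 103690 CPM, as the tissue label says. CPM are counts in every 1000000 counts of a library total scaled by edgeR's TMM factor, and 1 count stood for 0.0466 to 0.0752 CPM. A count of 0 leaves room for up to 3 counts, which is 0.14 to 0.226 CPM, a limit that covers counting error only. Many of the 45 genes lie near it, and 15 of them had no count in at least 1 VDS-F1 library.

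The genes of mitosis and cytokinesis were low in each VDS-F1 liver and higher in most VDD-F1 livers. Summed over the 45 genes, the VDS-F1 mice held 38.0, 36.5, 47.2, 47.2, 38.2 and 37.1 CPM in the order VDS1 to VDS6. The VDD-F1 mice held 59.1, 318, 44.2, 104, 103 and 81.0 CPM in the order VDD1 to VDD6. VDD2 was 7.82 times the VDS-F1 mean, VDD4, VDD5, VDD6 and VDD1 also lay above each VDS-F1 mouse, and VDD3 lay within the VDS-F1 range. The means were 118.3 ± 100.9 CPM in VDD-F1 and 40.7 ± 5.06 CPM in VDS-F1 (SD, n = 6 each), and without VDD2 the VDD-F1 mean was 78.3 ± 26.6 CPM (SD, n = 5). In bulk liver RNA, more dividing cells and more of these transcripts per cell cannot be told apart.

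Of the counts on these genes in VDD-F1, 47.5% came from VDD2. It was the highest of the 12 mice in 44 of the 45 genes, against 18.5% of the 12453 genes tested, and the exception was Aurkb, the catalytic kinase of the passenger complex, with 2.61 CPM in VDD4 and 2.40 CPM in VDD2. The ratio of VDD2 to the median of the other VDD-F1 mice ran from 1.42 for Smc4, a condensin core subunit, to 11.8 for Cdca3, a trigger of mitotic entry, with a median of 4.66 over the genes and of 0.995 over all genes tested. The gap between VDD2 and the next VDD-F1 mouse exceeded Dixon's 95% limit in 27 of the 45 genes, against 4.14% of genes tested.

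**Figure D2:**
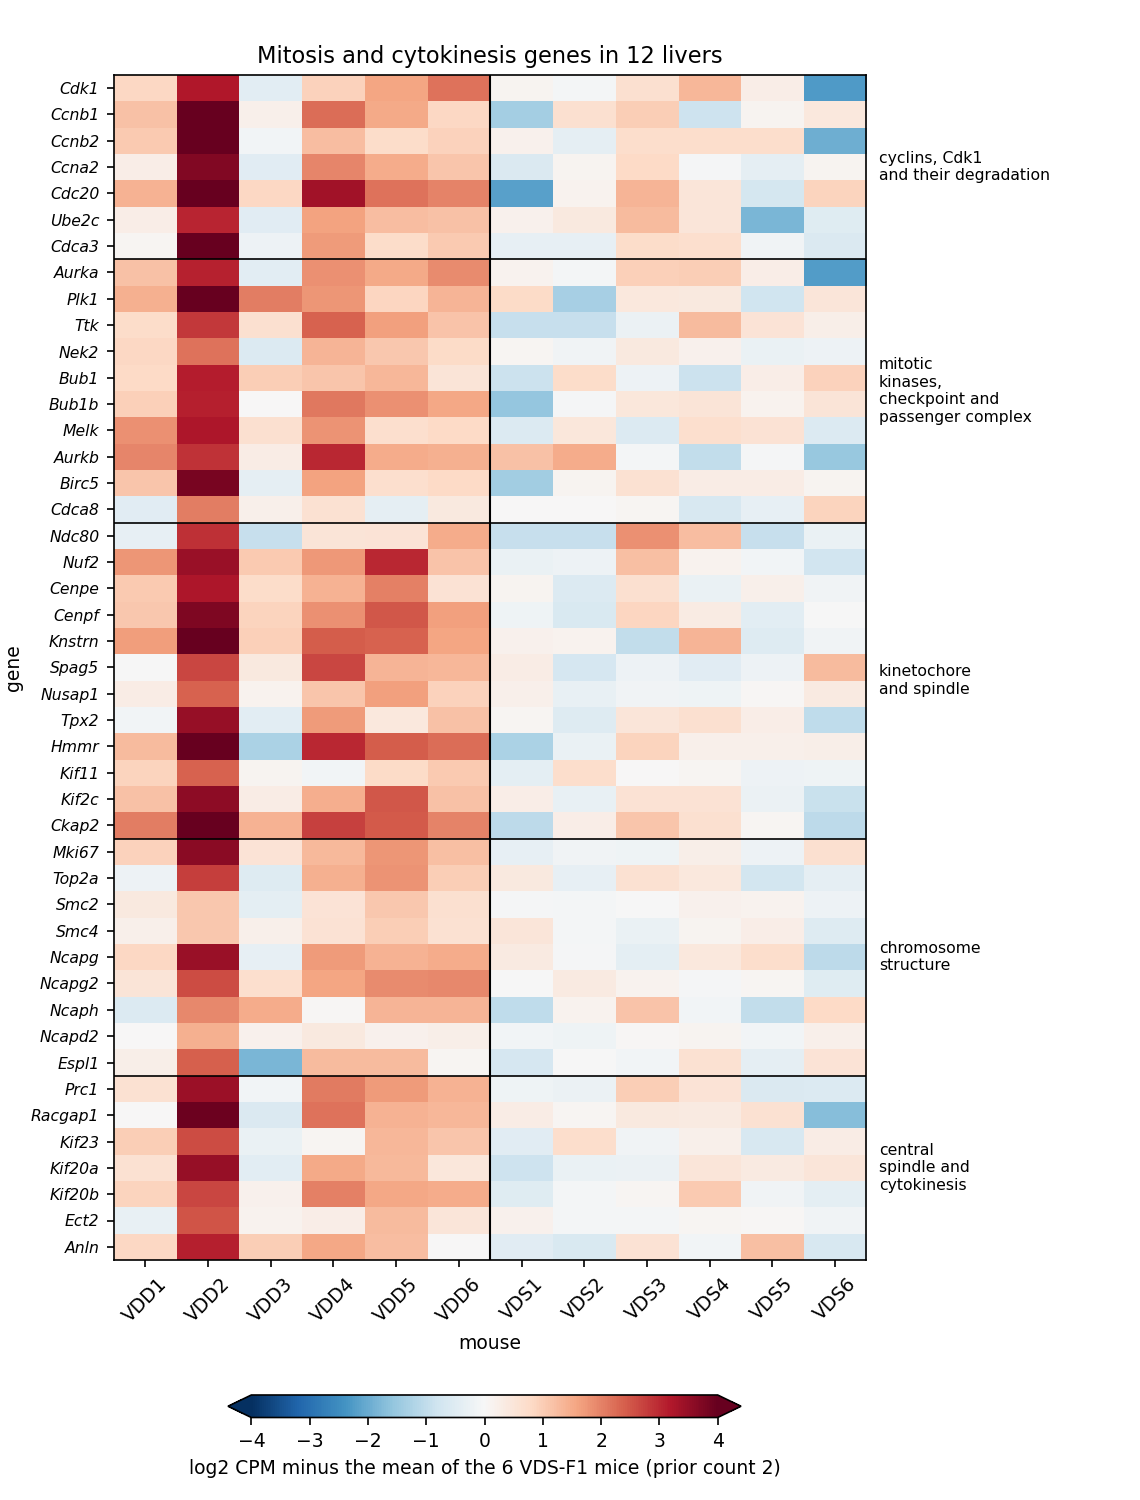
Each row is 1 of the 45 genes, ordered by role, and each column a mouse. Colour gives log2 CPM (prior count 2) minus the mean of the 6 VDS-F1 mice, and the last colours also stand for values beyond the scale; VDD2 is the darkest red column, VDD4 to VDD6 are red in most rows, and VDD3 is near the VDS-F1 mice in most rows.

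VDD2 was not the only VDD-F1 mouse with higher values. Over the 45 genes, VDD6 lay above the VDS-F1 median in 45, VDD4 and VDD5 in 44 each, VDD1 in 38 and VDD3 in 26. VDD4 lay above every VDS-F1 mouse in 39 genes, VDD5 in 40, VDD6 in 33, VDD1 in 24 and VDD3 in 7. Without VDD2 the VDD-F1 mean was still the higher in 45 of 45 genes, and the highest mouse other than VDD2 was a VDD-F1 mouse in 43. VDD3 was the lowest VDD-F1 mouse in 34 genes and VDD1 in 6.

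As a mean of log2 CPM (prior count 2) over the 45 genes, VDD-F1 stood at 0.65 ± 1.02 and VDS-F1 at -0.70 ± 0.28 (SD, n = 6 each), a difference of 1.35. Without VDD2 the VDD-F1 level was 0.29 ± 0.57 (SD, n = 5) and the difference 0.99. By mouse, the VDD-F1 levels were 0.02, 2.44, -0.56, 0.84, 0.71 and 0.43 from VDD1 to VDD6, and the VDS-F1 levels ran from -0.98 in VDS1 to -0.32 in VDS3. Thus 5 of 6 VDD-F1 mice lay above each VDS-F1 mouse. Because the list was drawn up with earlier results known, the level is given without a p-value.

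**Figure D3:**
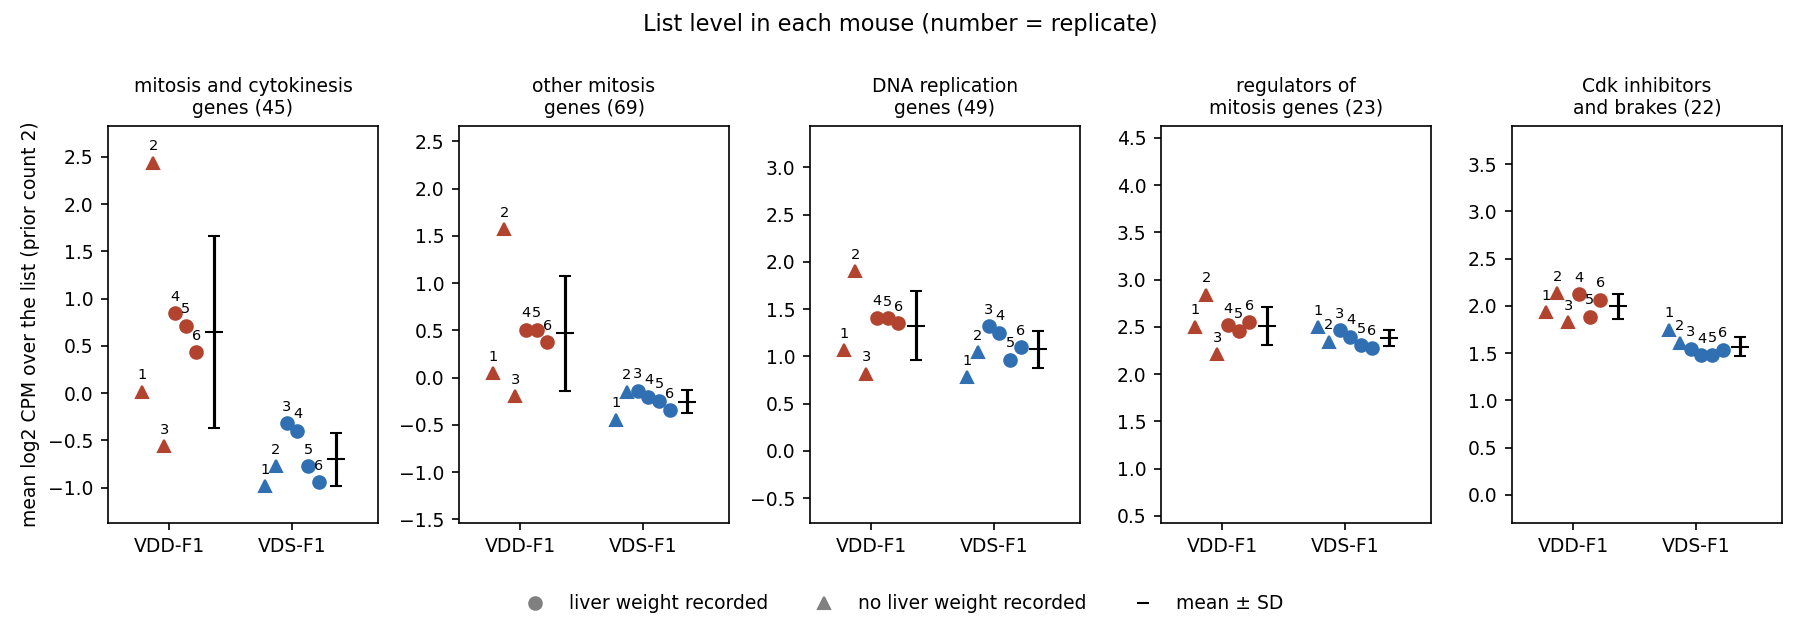
Mean log2 CPM (prior count 2) over each list in each mouse, with the group mean and SD beside the points, replicate numbers above them and a separate axis range of equal height in each panel. For the 45 mitosis and cytokinesis genes VDD2 stands at 2.44 and VDS-F1 mice between -0.98 and -0.32, while the lists of regulators and of DNA replication genes show smaller distances between the groups.

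Gene by gene, the groups were set against each other with the quasi-likelihood test of edgeR, fitted over the 12453 genes that reached a mean count of 12. Of the 45 genes 37 passed this filter, and 10 of the 37 would not have passed without VDD2, so counts over the 37 favour genes that were high there. A gene was called at a Benjamini-Hochberg adjusted p under 0.05 with a log2-fold change above 1 or below -1. None was called by edgeR (0 of 37), where 5 of all genes tested were (0.0402%). At an unadjusted p under 0.05, 35 of the 37 were higher in VDD-F1, against 9.55% of genes tested, and 0 were lower, against 6.29%. At an adjusted p under 0.10, 10 were higher, against 1.35%. The log2-fold change was above 0 in 37 of 37 (50.8% of genes tested) and above 1 in 33 (3.56%), with a median of 1.83 beside 0.004 over all genes tested.

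DESeq2 called 19 of the 37 at the same thresholds, against 1.75% of genes tested, and limma voom with sample weights called 7, against 1.45%. When the filter was a total count of 12, which left all 45 genes in the fit, edgeR gave an unadjusted p under 0.05 for 41 of 45, higher in VDD-F1, against 8.94% of 17769 genes, and a log2-fold change above 1 for 41, against 8.99%. There DESeq2 called 21 of 45, against 1.46%. Without VDD2 edgeR called 0 of 37 (0.0562% of genes tested) and gave an unadjusted p under 0.05 for 24 (7.32%), a log2-fold change above 0 for 37 (50.9%) and above 1 for 20 (2.18%), and an adjusted p under 0.10 for 2 (0.217%), and the median log2-fold change was 1.06. DESeq2 without VDD2, a fit added after the data had been seen, called 6 of 37, against 0.707%.

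The edgeR calls also turned on the VDD-F1 mice with low values. Without VDD1, 13 of the 37 genes were called, against 1.7% of genes tested in the same fit, and without VDD3, 8 were, against 0.578%. Calls thus grew in number over all genes too. The 10 genes at an adjusted p under 0.10 became 23 without VDD1 (4.44% of genes tested), 25 without VDD3 (2.85%), 3 without VDS1 (1.08%), 3 without VDS2 (1.04%) and 2 without VDD2. They became 0 when any of VDD4, VDD5, VDD6, VDS3, VDS4, VDS5 or VDS6 was left out, where 0% to 0.0402% of genes tested were higher at that threshold.

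**Figure D4:**
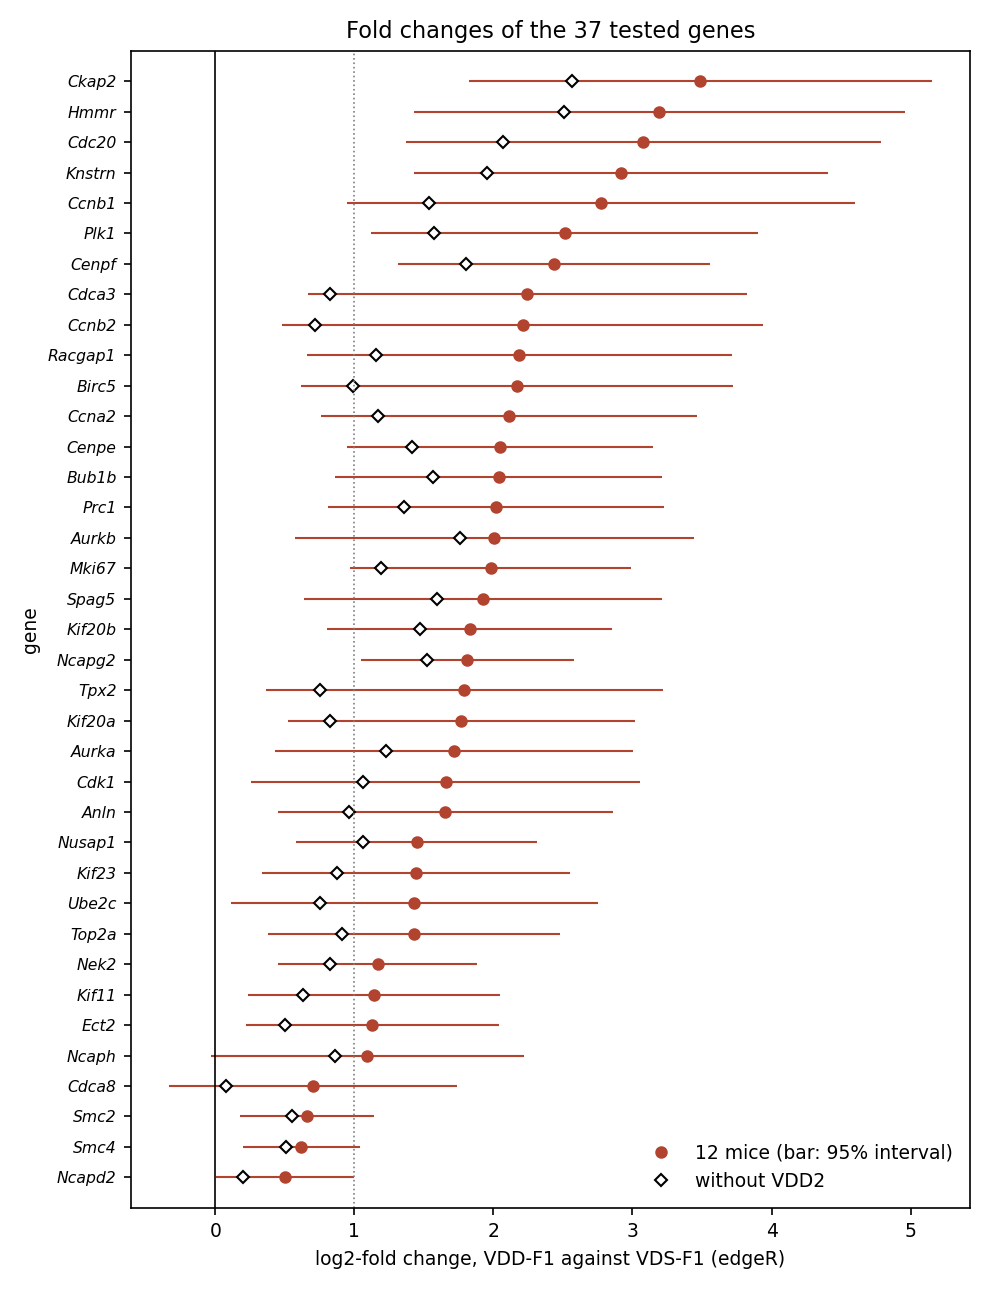
Log2-fold change of VDD-F1 against VDS-F1 by edgeR for the 37 genes that passed the mean count filter, with its 95% interval (bars), and the same value without VDD2 (diamonds). The values run from 0.50 for Ncapd2 to 3.49 for Ckap2, each diamond lies to the left of its point, and the dotted line marks a log2-fold change of 1.

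In 4 of the 45 genes every VDD-F1 mouse lay above every VDS-F1 mouse, against 0.61% of genes tested. These were Plk1, Cenpf, Ckap2 and Ncapg2. With fewer mice such a separation is easier to reach, and the number was 17 without VDD3 (1.05% of genes tested), 8 without VDS4 (0.827%) and 6 without VDS3 (0.683%).

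The 7 genes of cyclins, Cdk1 and their degradation each had an unadjusted p under 0.05, with a median log2-fold change of 2.21, and of 1.06 without VDD2, where 3 of the 7 kept an unadjusted p under 0.05. Cdk1, the kinase that drives cells into mitosis, ran from 0.301 to 5.05 CPM in VDD-F1 (median 1.27) and from 0 to 1.30 CPM in VDS-F1 (median 0.524). The groups overlapped, with VDD1, VDD3 and VDD4 inside the VDS-F1 range. Its log2-fold change was 1.66 (SE 0.65, adjusted p = 0.24) and 1.06 without VDD2.

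Cdc20, which targets cyclin B and securin for destruction, had 16.4 CPM in VDD2, 5.35 in VDD4, 2.26 in VDD5, 2.0 in VDD6, 1.26 in VDD1 and 0.828 in VDD3, and 0 to 1.24 CPM in VDS-F1 (median 0.547). Only VDD3 lay inside the VDS-F1 range. The log2-fold change was 3.08 (SE 0.80, adjusted p = 0.098) and 2.07 without VDD2. Ccna2, the cyclin A of S and G2 phase, ran from 0.451 to 10.1 CPM in VDD-F1 (median 1.79) and from 0.394 to 1.24 CPM in VDS-F1 (median 0.665), and VDD1 and VDD3 lay inside the VDS-F1 range. Its log2-fold change was 2.11 (SE 0.63, adjusted p = 0.131), and 1.17 without VDD2. Ube2c, the ubiquitin-conjugating enzyme of the anaphase-promoting complex, had the largest p-value of the group, with 0.376 to 5.42 CPM in VDD-F1 and 0.0694 to 1.51 CPM in VDS-F1 and a log2-fold change of 1.43 (SE 0.62, adjusted p = 0.279), which was 0.75 without VDD2.

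The mitotic cyclins Ccnb1 and Ccnb2, partners of Cdk1, had log2-fold changes of 2.77 and 2.21, and 1.53 and 0.72 without VDD2, while Cdca3 had 2.24 and 0.82. DESeq2 called Ccnb1, Ccna2, Cdc20 and Cdca3 and gave no adjusted p for Ccnb2. Some of these transcripts share sequence with other annotated genes, which can make their counts less certain. Both strands of the other genes were searched, so overlaps with a neighbour on the opposite strand are included, though counts by strand largely separate these. Of all 50-base stretches, 23.4% of Ccnb1 (with pseudogenes such as Ccnb1-ps), 15.9% of Ube2c, 11.4% of Ccna2 (with the neighbour Exosc9) and 10.6% of Cdc20 also occur in another gene.

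Of the 10 genes of mitotic kinases, checkpoint and passenger complex, 7 were tested and 6 of these had an unadjusted p under 0.05. Their median log2-fold change was 2.01, and 1.23 without VDD2, where 5 of the 7 kept an unadjusted p under 0.05. Plk1 had 7.45 CPM in VDD2, 1.73 in VDD3, 1.37 in VDD4, 1.07 in VDD1, 1.02 in VDD6 and 0.683 in VDD5, and 0.0589 to 0.641 CPM in VDS-F1 (median 0.474). The groups did not overlap, and VDD3, low in most other genes, was the second highest mouse. The log2-fold change was 2.51 (SE 0.65, adjusted p = 0.0976) and 1.57 without VDD2, and 10.4% of its 50-base stretches also occur in another gene, among them the pseudogene Plk-ps1.

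Bub1b, which encodes the checkpoint protein BubR1, ran from 0.376 to 4.06 CPM in VDD-F1 (median 1.47) and from 0.0493 to 0.572 CPM in VDS-F1 (median 0.483). All VDD-F1 mice but VDD3 lay above each VDS-F1 mouse. The log2-fold change was 2.04 (SE 0.55, adjusted p = 0.107) and 1.57 without VDD2. Cdca8, which encodes the passenger complex subunit borealin, had the largest p-value of the 37 genes. It ran from 0.441 to 3.02 CPM in VDD-F1 (median 0.818) and from 0.364 to 1.29 CPM in VDS-F1 (median 0.645). Apart from VDD2 the groups overlapped throughout, and its log2-fold change of 0.71 (SE 0.48, adjusted p = 0.507) was 0.07 without VDD2.

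The other kinases and partners gave log2-fold changes of 1.72 for Aurka, the kinase of spindle poles, 1.17 for Nek2, a centrosomal kinase, 2.01 for Aurkb and 2.17 for Birc5, the passenger complex subunit survivin. Without VDD2 these were 1.23, 0.82, 1.76 and 0.99. DESeq2 called Plk1, Nek2 and Bub1b.

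All 9 tested genes of the kinetochore and spindle, of 12 listed, had an unadjusted p under 0.05, 5 of them an adjusted p under 0.10, and DESeq2 called 6. The median log2-fold change was 2.05, and 1.60 without VDD2, where 7 of the 9 kept an unadjusted p under 0.05. Cenpf had 8.23 CPM in VDD2, 3.36 in VDD5, 2.13 in VDD4, 1.82 in VDD6, 1.20 in VDD1 and 1.05 in VDD3, and 0.295 to 1.03 CPM in VDS-F1 (median 0.472). The groups did not overlap, though VDD3 stood just above VDS3. The log2-fold change was 2.44 (SE 0.52, adjusted p = 0.0812) and 1.80 without VDD2.

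Ckap2, a microtubule-binding protein of the spindle, had the largest log2-fold change of the tested genes, 3.49 (SE 0.78, adjusted p = 0.0855), and 2.56 without VDD2. It had 6.30 CPM in VDD2, 1.51 in VDD4, 1.21 in VDD5, 0.882 in VDD1, 0.838 in VDD6 and 0.527 in VDD3, and 0 to 0.412 CPM in VDS-F1 (median 0.158). The groups did not overlap, but the VDS-F1 mice lay near the limit of 3 counts and VDS1 and VDS6 had no count, so the size of the fold change rests on very few reads. Tpx2, an activator of Aurka on spindle microtubules, had the largest p-value of the group, with 0.376 to 7.45 CPM in VDD-F1 (median 1.09) and 0.214 to 0.935 CPM in VDS-F1 (median 0.643). VDD1, VDD3 and VDD5 lay inside the VDS-F1 range, and the log2-fold change of 1.79 (SE 0.67, adjusted p = 0.217) was 0.76 without VDD2.

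The remaining tested genes of this group were Hmmr, a spindle protein, at a log2-fold change of 3.19, Knstrn, a kinetochore adaptor, at 2.92, the kinetochore motor Cenpe at 2.05, the spindle proteins Spag5 and Nusap1 at 1.93 and 1.45, and the spindle motor Kif11 at 1.14. Without VDD2 they were 2.51, 1.95, 1.41, 1.60, 1.06 and 0.63. Hmmr had no count in VDD3 or VDS1 and 5.05 CPM in VDD2.

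Among the 9 genes of chromosome structure 7 were tested, 6 with an unadjusted p under 0.05, and their median log2-fold change was the lowest of the role groups, 1.09, and 0.86 without VDD2. Mki67, which encodes the proliferation marker Ki-67 on the surface of mitotic chromosomes, had the most counts of the 45 genes, a mean of 156.5 per library against 152 for Smc4, though without VDD2 Smc4 led with 141 against 95.5. Mki67 had 43.1 CPM in VDD2, 11.97 in VDD5, 8.57 in VDD4, 8.15 in VDD6, 6.68 in VDD1 and 5.12 in VDD3, and 2.71 to 5.43 CPM in VDS-F1 (median 3.07). VDD3 alone overlapped the VDS-F1 range, below VDS6. The log2-fold change was 1.98 (SE 0.47, adjusted p = 0.0905) and, without VDD2, 1.20 with the smallest p of the genes (adjusted p = 0.0792).

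Ncapg2 had 5.83 CPM in VDD2, 3.54 in VDD6, 3.47 in VDD5, 2.81 in VDD4, 1.43 in VDD3 and 1.26 in VDD1, and 0.572 to 1.12 CPM in VDS-F1 (median 0.870). The groups did not overlap. Its log2-fold change of 1.81 (SE 0.36, 95% interval 1.05 to 2.58) had the smallest p of the 37 genes (adjusted p = 0.064 by edgeR), and it was 1.52 without VDD2 (adjusted p = 0.0966).

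Top2a, the topoisomerase that untangles sister chromatids, ran from 1.13 to 12.03 CPM in VDD-F1 (median 4.03) and from 0.971 to 2.61 CPM in VDS-F1 (median 1.76). VDD1 and VDD3 lay inside the VDS-F1 range, and the log2-fold change of 1.43 (SE 0.49, adjusted p = 0.181) was 0.91 without VDD2. Ncaph, the kleisin of condensin I, ran from 0.315 to 2.29 CPM in VDD-F1 (median 1.53) and from 0.197 to 1.30 CPM in VDS-F1 (median 0.528). VDD2, VDD3, VDD5 and VDD6 lay above each VDS-F1 mouse and VDD1 and VDD4 within their range, and the log2-fold change of 1.09 (SE 0.53, adjusted p = 0.331) was 0.86 without VDD2. The condensin core subunits Smc2 and Smc4 and the condensin I subunit Ncapd2 had the smallest log2-fold changes of the tested genes, at 0.66, 0.62 and 0.50, and 0.55, 0.51 and 0.20 without VDD2.

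The 7 genes of the central spindle and cytokinesis each had an unadjusted p under 0.05, 4 of them without VDD2, with a median log2-fold change of 1.77, and 0.96 without VDD2. Kif20b ran from 0.376 to 2.66 CPM in VDD-F1 (median 1.14) and from 0.197 to 0.779 CPM in VDS-F1 (median 0.286). VDD1 and VDD3 lay inside the VDS-F1 range, whose upper end was VDS4 alone, and the log2-fold change was 1.83 (SE 0.48, adjusted p = 0.0998) and 1.47 without VDD2. Prc1, which bundles the antiparallel microtubules of the central spindle, ran from 0.527 to 7.29 CPM in VDD-F1 (median 1.91) and from 0.347 to 1.24 CPM in VDS-F1 (median 0.482). Again VDD1 and VDD3 overlapped the VDS-F1 mice, and the log2-fold change was 2.02 (SE 0.57, adjusted p = 0.113) and 1.36 without VDD2.

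Ect2, the exchange factor that activates RhoA at the cleavage furrow, had the largest p-value of the group. It ran from 1.39 to 10.5 CPM in VDD-F1 (median 2.32) and from 1.57 to 1.97 CPM in VDS-F1 (median 1.73), and VDD1 was the lowest of all 12 mice. Its log2-fold change of 1.13 (SE 0.42, adjusted p = 0.222) was 0.50 without VDD2. The centralspindlin subunits Racgap1 and Kif23 had log2-fold changes of 2.19 and 1.45, the kinesin Kif20a 1.77 and the furrow scaffold Anln 1.66, and without VDD2 these were 1.16, 0.87, 0.83 and 0.96. Of the 50-base stretches of Kif20a, 25.2% also occur in its overlapping neighbour Cdc23. DESeq2 called Prc1, Racgap1, Kif20a and Kif20b.

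The 8 genes below the mean count filter were Ttk, Bub1 and Melk among the kinases, Ndc80, Nuf2 and Kif2c of the kinetochore, and Ncapg and Espl1, the separase that cuts cohesin. Their total counts over the 12 libraries ran from 60 for Melk to 115 for Espl1. In the fit with a total count of at least 12 their log2-fold changes were 2.16, 2.18 and 2.72 for Ttk, Bub1 and Melk, 1.17, 3.05 and 2.75 for Ndc80, Nuf2 and Kif2c, and 2.37 and 1.23 for Ncapg and Espl1. The unadjusted p was under 0.05 for each but Ndc80 (adjusted p = 0.663 by edgeR) and Espl1 (adjusted p = 0.424). Nuf2, a subunit of the Ndc80 complex that holds microtubules, had the smallest adjusted p of the 8 (0.0911), with 0.301 to 2.08 CPM in VDD-F1 and 0 to 0.343 CPM in VDS-F1.

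Per kilobase of exon the order of the genes in VDD2 differed from that in VDS-F1. In VDS-F1 the highest were Smc4 at 1.32 CPM per kilobase, Ncapd2 at 0.655, Nek2 at 0.60 and Smc2 at 0.512, followed by Mki67 at 0.353, Ect2 at 0.325 and Cdc20 at 0.303, and the lowest was Nuf2 at 0.0164. In VDD2 the highest was Cdc20 at 8.75 CPM per kilobase, then Ccnb2 at 5.34, Cdca3 at 5.18, Mki67 at 4.28, Plk1 at 3.39 and Kif20a at 3.22, while Smc4 stood at 2.74. The 4 genes that led in VDS-F1 had log2-fold changes of 0.50 to 1.17, and Cdc20, behind 6 others in VDS-F1, stood first in VDD2. This change of leader rests on VDD2, since over the other 5 VDD-F1 mice Smc4 led with a mean of 1.89 CPM per kilobase, ahead of Cdc20 at 1.25, Nek2 at 1.06 and Mki67 at 0.805.

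The study records a liver weight for 7 of the mice, VDD4, VDD5 and VDD6 together with VDS3 to VDS6, and the comparison was repeated within these and within the other 5. The difference in level over the 45 genes was 1.27 on the log2 scale in mice with a recorded weight (0.67 ± 0.21 against -0.61 ± 0.30, SD, n = 3 and 4) and 1.51 in the others (0.63 ± 1.59 against -0.88 ± 0.15, SD, n = 3 and 2), which fell to 0.61 without VDD2. In the recorded set VDD4, VDD5 and VDD6 each lay above VDS3 to VDS6 in 28 of the 45 genes, against 12% of genes tested, and edgeR called 15 of the 37, against 3.06%, with 27 at an unadjusted p under 0.05, against 12.9%. In the other set VDD1, VDD2 and VDD3 each lay above VDS1 and VDS2 in 19 of the 45 genes, against 8.95%, and 0 of the 37 were called, as of all genes tested (0%), while 9 had an unadjusted p under 0.05, against 2.06%. The test of the difference between the sets, an interaction of diet and set, gave an adjusted p under 0.05 for 0 of the 37 genes (0.0883% of genes tested) and an unadjusted p under 0.05 for 1 (9.01%). That gene, named after its values were seen, was Aurkb, whose log2-fold change was lower by 2.67 in the set without a recorded weight (interaction of -2.67, adjusted p = 0.529 by edgeR).

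Other genes of the cell cycle were read from lists drawn up by function. Of 69 other mitosis genes 34 were tested, 14 of them higher and 1 lower at an unadjusted p under 0.05, with a median log2-fold change of 0.45. Without VDD2 these were 6 higher and 1 lower, with a median of 0.30. Cenpa, the centromeric histone, ran from 2.58 to 7.45 CPM in VDD-F1 and from 0.779 to 2.22 CPM in VDS-F1 without overlap, with a log2-fold change of 1.21 (SE 0.31, adjusted p = 0.0969). Aspm, a protein of spindle poles, gave 1.69 (SE 0.44, adjusted p = 0.098). In the other direction Hjurp, the chaperone of Cenpa, had 38.0 to 73.9 CPM in VDD-F1 and 66.1 to 81.1 CPM in VDS-F1 and a log2-fold change of -0.49 (SE 0.15, adjusted p = 0.134), and Ccnf, a substrate receptor of SCF ubiquitin ligase, gave -0.35 (SE 0.19, adjusted p = 0.393).

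Of 23 listed transcription factors and partners that regulate mitosis genes 20 were tested, 1 higher and 1 lower at an unadjusted p under 0.05 (0 and 1 without VDD2), with a median log2-fold change of -0.04. Foxm1 had 5.0 CPM in VDD2 and 0.838 to 1.37 CPM in the other VDD-F1 mice, beside 0.208 to 1.14 CPM in VDS-F1. Its log2-fold change was 1.23 (SE 0.49, adjusted p = 0.241) and 0.57 without VDD2. The pocket protein Rbl1 gave 0.48 (adjusted p = 0.483), E2f4, the E2F of the DREAM complex, -0.24 (adjusted p = 0.224), and Lin37, a subunit of its MuvB core, -0.34 (adjusted p = 0.391).

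Of 49 DNA replication genes 39 were tested, 7 higher and 0 lower at an unadjusted p under 0.05 (6 and 0 without VDD2), with a median log2-fold change of 0.20, and of 0.105 without VDD2. Dbf4, the activator of the Cdc7 kinase at origins, ran from 2.03 to 4.27 CPM in VDD-F1 and from 1.0 to 1.83 CPM in VDS-F1 without overlap, at a log2-fold change of 1.01 (SE 0.24, adjusted p = 0.0874). Uhrf1, which brings DNA methylation to replicated DNA, gave 1.96 (SE 0.62, adjusted p = 0.151), and Gins1 and Recql4, of the replicative helicase and a helicase of origin firing, gave -0.58 and -0.39 (adjusted p = 0.543 and 0.57).

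Of 22 inhibitors of Cdk and brakes on mitosis 16 were tested, 5 higher and 0 lower at an unadjusted p under 0.05, with a median log2-fold change of 0.26. Cdkn1a, which encodes the Cdk inhibitor p21, had 18.0 to 50.04 CPM in VDD-F1 and 3.75 to 19.2 CPM in VDS-F1, and only VDD4 lay inside the VDS-F1 range. Its log2-fold change of 1.49 (SE 0.35, adjusted p = 0.0855) was 1.57 without VDD2, whose 21.7 CPM was the second lowest of the group. Pkmyt1, a kinase that holds Cdk1 inactive, gave 1.20 (SE 0.34, adjusted p = 0.113), and Trp53 and Fzr1, which encodes the anaphase-promoting complex activator Cdh1, gave -0.14 and -0.08 (adjusted p = 0.652 and 0.814). Over the list, the mean log2 CPM of each of the 6 VDD-F1 mice lay above each VDS-F1 mouse (1.99 ± 0.13 against 1.57 ± 0.10, SD, n = 6 each). DESeq2 called 2 of the 16, Cdkn1a and Pkmyt1, as higher, against 1.75% of genes tested. It also called 5 of the 34 other mitosis genes, 0 of the 20 regulators and 2 of the 39 DNA replication genes as higher. Without VDD2 it called 1 of the 16 and 0 in each of the other lists, against 0.707%.

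Markers of the cell types a liver holds were summed in each library. In 3 lists VDD2 was highest and VDD4 to VDD6 lay above each VDS-F1 mouse, as for the mitosis genes. In 1 of them, the cholangiocyte list, this rested on Spp1, which is also a marker in the monocyte list. The 10 markers of monocytes and recruited macrophages summed to 38.0, 258, 42.1, 109, 98.5 and 101 CPM from VDD1 to VDD6 and to 38.3 to 62.5 CPM in VDS-F1. VDD1, above each VDS-F1 mouse in the mitosis genes, was here the lowest of the 12 mice. Each of the 10 was highest in VDD2, 7 of the 8 tested (4 without VDD2) had an unadjusted p under 0.05, higher in VDD-F1, and 0 of the 10 were at 0 in every library, though Chil3 had no count in 7 of them. Among them Gpnmb, a marker of lipid-associated macrophages named after its values were seen, had 0.378, 45.3, 1.43, 18.6, 16.7 and 7.40 CPM from VDD1 to VDD6 and 0.0686 to 0.592 CPM in VDS-F1, so that VDD1 alone lay inside the VDS-F1 range. The 9 Kupffer cell and macrophage markers did not follow, at 168 to 426 CPM in VDD-F1 and 219 to 395 CPM in VDS-F1, with 0 higher and 2 lower of 9 at an unadjusted p under 0.05 (0 and 4 without VDD2), although VDD2 had the highest sum (VDS2 led as a mean of log2 CPM, with 4.98 against 4.95 in VDD2).

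The 7 cholangiocyte markers, which include Spp1 from the monocyte list, summed to 24.0, 117, 41.6, 73.9, 66.5 and 60.1 CPM from VDD1 to VDD6. In VDS-F1 they summed to 28.6 to 51.9 CPM, and each marker was highest in VDD2. Spp1 alone gave 66.4 CPM in VDD2, 33.1 CPM in VDD6 and 17.4 CPM in VDS4, and without it VDD6 would lie below VDS4. Of the 6 tested, 3 were higher in VDD-F1 at an unadjusted p under 0.05, 0 without VDD2, and 0 were lower. The 7 dendritic cell markers summed to 8.0, 24.0, 9.03, 13.6, 14.0 and 12.2 CPM in VDD-F1 and to 7.21 to 9.19 CPM in VDS-F1. Of the 2 tested, 1, Itgax, was higher at that p, with and without VDD2, and it alone gave 12.4 CPM in VDD2. The other, Zbtb46, had a log2-fold change of -0.13 (adjusted p = 0.636 by edgeR). The 10 stellate cell and fibroblast markers summed to 949 CPM in VDD2, 475 to 642 CPM in the other VDD-F1 mice and 480 to 620 CPM in VDS-F1, and 8 of them were highest in VDD2. At an unadjusted p under 0.05, 4 of the 10 were higher in VDD-F1 (Col1a1, Col1a2, Dcn and Pdgfrb) and 1 was lower (Ecm1), and without VDD2 Col1a1, Col1a2 and Ecm1 were left. The genes of the collagen I chains, Col1a1 and Col1a2, differed by 2.27 (adjusted p = 0.0883 by edgeR) and by 1.43 (adjusted p = 0.111) on the log2 scale, and by 1.81 and 1.003 without VDD2. In VDD1, at 7.5 and 14.4 CPM, both lay inside the VDS-F1 ranges. The 8 hepatocyte markers ran from 86532 to 103690 CPM in VDD-F1 and from 75039 to 91335 CPM in VDS-F1, and as a mean of log2 CPM VDD2 was the lowest of the 12 mice at 11.1. Of these 8, 0 were higher and 1, Hnf4a, was lower at an unadjusted p under 0.05, and without VDD2 1, Alb, was higher and 0 were lower.

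The other lists were endothelial cells (9 markers, 288 to 360 CPM in VDD-F1 and 275 to 409 CPM in VDS-F1), mesothelial cells (6 markers, 153 to 272 and 139 to 205 CPM, of which Krt8, a keratin of other epithelial cells too, made up 147 to 253 and 133 to 195 CPM), erythroid precursors (9 markers, 194 to 359 and 167 to 653 CPM), neutrophils (8 markers, 0.693 to 7.87 and 0.206 to 4.0 CPM), T and NK cells (9 markers, 2.03 to 10.5 and 2.81 to 5.41 CPM) and B and plasma cells (7 markers, 1.05 to 7.39 and 1.0 to 3.71 CPM). VDD2 had the highest T and NK cell and B and plasma cell sums. At an unadjusted p under 0.05, 1 of the 9 endothelial markers was higher and 2 were lower (0 and 2 without VDD2), 1 of 5 tested mesothelial markers was higher (0 without VDD2), 1 of 2 tested T and NK cell markers was lower, and 0 of 6 tested erythroid markers were either. None of the 8 neutrophil markers passed the mean count filter and 1 of the 7 B and plasma cell markers did, so for these lists there are levels and hardly any test. Of the markers tested, in 11 lists, 0 had an adjusted p under 0.05 by edgeR. By DESeq2 the adjusted p was under 0.05 for Gpnmb, Trem2, Ccr2, Cx3cr1, Itgax, Col1a1 and Col1a2, higher in VDD-F1, and for Ecm1 and Cd4, lower. Of the 12453 genes tested, 349 were higher and 155 lower at that threshold. The part of these cells, and of the low mitochondrial share of VDD2, in the levels of the mitosis genes was not tested.

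**Figure D5:**
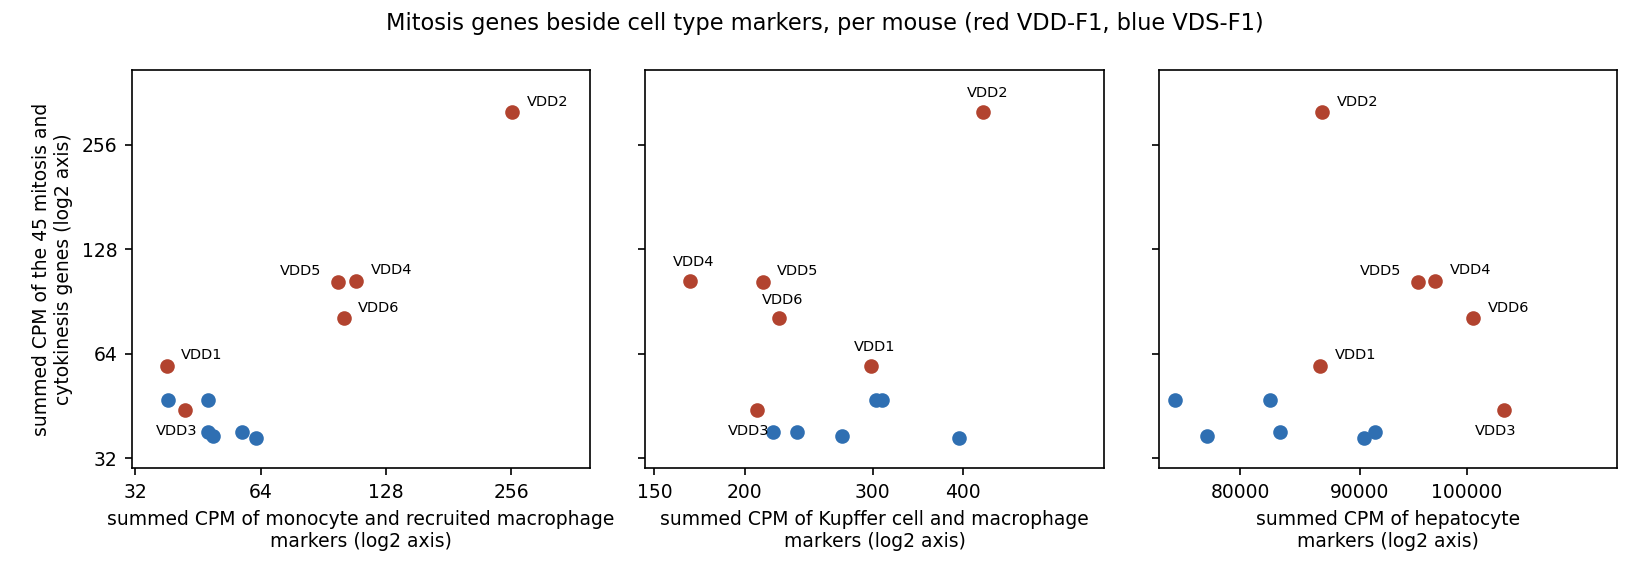
Summed CPM of the 45 mitosis and cytokinesis genes in each mouse against the summed CPM of the markers of 3 cell types, all on log2 axes, with VDD-F1 mice in red and named and VDS-F1 mice in blue. VDD2 is highest for the mitosis genes (318 CPM) and for the monocyte markers (258 CPM). VDD4 to VDD6 follow at 81.0 to 104 and 98.5 to 109 CPM. Among markers not drawn, those of dendritic cells show such an order, and those of cholangiocytes do so only with Spp1 included. No such order is seen for the Kupffer cell or hepatocyte markers.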

How the data were processed

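RNA-seq libraries were prepared with the KAPA RNA HyperPrep kit with RiboErase. The authors trimmed the reads, aligned them to mm10 with STAR (version not given in the sources used here) and counted fragments on the genes of GENCODE M15. The deposited values are these counts as they are, not normalized, given without regard to strand and by strand. The column for the reverse strand entered the fits and held 92.7% to 95.8% of stranded counts. No source names the column the authors used. Only fragments that map to 1 place are counted, so near-identical genes lose reads. Symbols and positions came from GENCODE M21 on GRCm38, which matched 52489 of 52636 gene IDs, and 1 of 10 erythroid markers was not matched. All 66 pairs of libraries differed beyond sampling noise (chi-square per degree of freedom 12.91 or more).

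A mean count of 12 or more was the filter, and the tests were made with edgeR 4.0.16 in R 4.3.3 (TMM, quasi-likelihood fit in the legacy form), adjusted by Benjamini-Hochberg over all 12453 genes. The methods of the study name DESeq2 with the same filter and thresholds, and DESeq2 1.42.0 was run as an alternative. Levels are log2 CPM with a prior count of 2. Intervals are 95%. The fits were tested on simulated data with known changes. These changes were equal in all VDD-F1 mice, without an outlying mouse such as VDD2, so that case was not covered.

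The 45 genes, their roles, the pathway lists and the 12 marker lists were chosen with earlier results of these data known. Values by mouse were given for Mki67, Top2a and Cdk1 and, in each role group, for the 2 tested genes with the smallest p and the gene with the largest, and from each pathway list the 2 genes with the smallest p in each direction were named. Alternatives were DESeq2, limma 3.58.1 voom, other scalings, filters, dispersion fits and the count that ignores the strand, the set of mice as a covariate or each set alone, each mouse left out and a replicate block. The sets follow the liver weights recorded in the study's supplement. Replicate numbers come from the sample titles and mark different mice. Figures were drawn with matplotlib 3.10.9 in Python 3.11.15.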

Additional observations from a re-analysis of the deposited data

Results flagged for a closer look

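Among the 17 genes given by mouse, 1 mouse stood apart from its group by Dixon's 95% limit for 6 mice in 13 cases, where chance alone gives about 1 in 20. In 11 of them VDD2 was the mouse, at the top of VDD-F1, with 43.1 CPM for Mki67, 16.4 CPM for Cdc20, 10.1 CPM for Ccna2, 5.42 CPM for Ube2c, 7.45 CPM for Plk1, 3.02 CPM for Cdca8, 8.23 CPM for Cenpf, 6.30 CPM for Ckap2, 7.45 CPM for Tpx2, 7.29 CPM for Prc1 and 10.5 CPM for Ect2. In VDS-F1, VDS6 stood apart for Cdca8 at 1.29 CPM and VDS4 for Kif20b at 0.779 CPM. These genes share the same libraries and are not independent of each other.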

How the results depend on the processing

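Of the 37 tested genes, edgeR called 0 in all 12 mice. The number was 19 with DESeq2, 7 with limma voom, 4 of 45 without a filter (0.283% of genes tested) and 15 in mice with a recorded liver weight. In fits added after the data had been seen, DESeq2 called 21 of 45 at a total count of at least 12 and 6 without VDD2. Leaving out each mouse gave 0 (without VDD2 among others) to 13 (without VDD1). The 10 genes at an adjusted p under 0.10 (1.35% of genes tested) became 28 with DESeq2 (4.22%), 32 of 45 with DESeq2 at a total count of 12 (3.33%), 17 with voom (6.2%), 5 without TMM (0.642%), 6 of 45 at a total count of 12 (0.62%), 5 of 30 with filterByExpr (0.946%), 3 with a robust fit (0.434%), 20 and 0 in mice with and without a recorded weight (8.44% and 0%), 2 of 27 with VDD2 left out before the filter (0.21%), 1 without VDD2 and VDS6 (0.0241%), and 0 to 25 with each mouse left out (0% to 4.44%). The 35 genes at an unadjusted p under 0.05 became 9 in mice without a recorded weight (2.06%), 19 of 27 with VDD2 left out before the filter (7.24%), 21 without VDD2 and VDS6 (7.04%), and 24 to 36 with each mouse left out, and 0 of the 37 were lower at that p with each mouse left out. The median of 1.83 became 1.07 with DESeq2 without VDD2, 1.06 with VDD2 left out before the filter, 0.998 without VDD2 and VDS6, and 1.06 to 2.01 with each mouse left out. The difference in level of 1.35 ran from 0.99 to 1.59 with each mouse left out. The 4 genes without overlap of the groups became 28 and 19 in mice with and without a recorded weight (12% and 8.95% of genes tested) and 4 to 17 with each mouse left out (0.683% to 1.8%). Of the log2-fold changes of named genes under the alternatives, 896 kept their sign with the adjusted p on its side of 0.05, 88 kept their sign with an adjusted p that came to lie under 0.05, and that of Fzr1 turned to 0.006 without VDD5 (lowest -0.15, without VDD3). The cause of each was not tested. With the replicate number as a block, 2 genes had an adjusted p under 0.10 (0.506% of genes tested) and 0 were called (0.137%). Mice with the same number did not deviate together (correlations of -0.08 to 0.10), and each correlated best with another number, so the numbers pair nothing. Low counts, with 15 genes at 0 in at least 1 VDS-F1 library, limit the fold changes.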
